A study of Mus musculus with 12 samples.

Results

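Immediate early genes are the genes that neurons and other cells transcribe within minutes of a stimulus, before any new protein has been made. Here 10 of them are described across the mouse brain libraries of a Notch knockout and valproic acid study: Fos, Fosb, Junb, Egr1, Egr2, Npas4, Arc, Nr4a1, Ier2 and Dusp1. They were taken by name, each symbol matching 1 Ensembl identifier, and are 10 of the 56748 genes counted; all 10 had enough counts to be tested, among 17995 tested genes. RNA sequencing of rRNA-depleted total RNA was done on 12 libraries in 4 groups of 3. The groups were knockout with valproic acid (htr_V), wildtype with valproic acid (WT_V), knockout without it (htr, labelled htr3a Notch KO) and wildtype without it (WT). The series describes the tissue as adult forebrain and the exposure as prenatal, while the sample labels say brain; which Notch gene was deleted, what drove the deletion, strain, exact age, drug dose and day of dosing are not stated in the sources used here. No label says that replicates came from separate animals, so p-values measure the spread between these libraries.

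In neurons, calcium entry and growth factor signals reach these genes through kinases that act on factors already bound at their promoters, among them CREB at cyclic AMP response elements (CRE) and serum response factor (SRF) at CArG boxes. The first transcripts and proteins are short-lived. Most encode transcription factors that act on later genes, while a few, such as Arc, act directly at the synapse. In resting brain they are transcribed at a low level that differs from neuron to neuron, and Fos and Arc are widely used as markers of recently active neurons. Valproic acid is an antiepileptic drug that also inhibits histone deacetylases, and rodents exposed to it before birth serve as an autism model.

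The promoters of 5 of these genes are shown because each holds the CRE letters, which every member with a sequence at hand held in at least 1 of its promoters. Each is the 250 bases before the transcription start, 5′ to 3′ in the direction of the gene, from RefSeq on build GRCm38.p6, an earlier build than the GRCm39 the submitters' notes name. The windows are chr12:85473640-85473889 (+) for Fos, chr7:19310046-19310295 (-) for Fosb, chr15:101266596-101266845 (+) for Nr4a1, chr19:4989972-4990221 (-) for Npas4 and chr17:26508473-26508722 (-) for Dusp1. Capitals mark TGACG or its complement CGTCA, which is the core of a CRE, and the TATA box TATAAA.
Fos: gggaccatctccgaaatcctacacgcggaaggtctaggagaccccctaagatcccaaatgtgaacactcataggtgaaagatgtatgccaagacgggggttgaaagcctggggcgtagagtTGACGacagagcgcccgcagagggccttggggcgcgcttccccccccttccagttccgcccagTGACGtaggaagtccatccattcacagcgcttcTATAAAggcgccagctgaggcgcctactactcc
Fosb: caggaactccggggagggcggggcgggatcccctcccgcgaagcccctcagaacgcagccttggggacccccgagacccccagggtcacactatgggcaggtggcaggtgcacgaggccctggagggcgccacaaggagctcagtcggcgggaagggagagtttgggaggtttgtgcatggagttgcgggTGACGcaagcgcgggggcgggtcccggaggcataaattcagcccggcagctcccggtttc
Nr4a1: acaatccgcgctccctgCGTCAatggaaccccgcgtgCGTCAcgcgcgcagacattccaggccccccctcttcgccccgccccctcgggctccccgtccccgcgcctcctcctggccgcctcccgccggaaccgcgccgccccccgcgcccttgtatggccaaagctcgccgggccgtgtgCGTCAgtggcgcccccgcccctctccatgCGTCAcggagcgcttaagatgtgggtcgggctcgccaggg
Npas4: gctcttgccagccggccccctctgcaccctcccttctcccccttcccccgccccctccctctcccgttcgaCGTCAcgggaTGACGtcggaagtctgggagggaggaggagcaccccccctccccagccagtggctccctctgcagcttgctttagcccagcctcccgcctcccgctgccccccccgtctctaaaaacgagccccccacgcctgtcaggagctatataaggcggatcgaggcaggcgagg
Dusp1: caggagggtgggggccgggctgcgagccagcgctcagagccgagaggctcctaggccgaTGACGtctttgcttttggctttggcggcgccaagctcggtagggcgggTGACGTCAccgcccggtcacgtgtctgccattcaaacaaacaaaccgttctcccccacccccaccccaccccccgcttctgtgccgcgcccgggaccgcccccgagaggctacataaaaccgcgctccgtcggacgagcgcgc
The RefSeq table holds 7 members, which are these 5 and Junb with 1 window each and Egr2 with 5 windows that partly overlap. TGACG or CGTCA, searched on both strands, was in 9 of these 11 windows, against 17.8% of 32851 mouse promoter windows of the same length, and 2 of the 5 Egr2 windows lacked it. Counted by gene, 7 of 7 members held it in at least 1 window, against 19.8% of 27025 genes. In Fos it began 129 and 66 bases before the start, with TATAAA at 33 bases, which no other of the 7 held and 7.59% of all windows did. Only these exact letters were searched, so TATA boxes of other letters, such as the tatataagg near the start of Npas4, are neither marked nor counted. Nr4a1 held TGACG or CGTCA at 233, 213, 69 and 40 bases, Npas4 at 179 and 169 bases, and Fosb at 60 bases. The whole palindrome TGACGTCA was in Dusp1 alone of the 7, 143 bases before the start, against 1.55% of all windows; it contains the shorter motif on both strands. An SRF CArG box, searched strictly as CC, a run of A or T and GG, was found within these windows in Egr2 only. It was in 4 of the 5 Egr2 windows (1.47% of all windows), some of which overlap and hold the same box. Counted by gene, 1 of 7 members held it, against 1.62% of 27025 genes. Boxes of other letters, or farther than 250 bases before the start, were not searched for in any member. The EGR site, searched as GCGTGGGCG or GCGGGGGCG, was in Fosb and Nr4a1 (3.06%). These matches describe the letters in this window and were not related to binding in these samples.

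Total counts were 16887885 to 24944681 per library. Values below are CPM, a gene's counts per 1000000 counts of its library after scaling by TMM factors, which correct for differences in library composition. Xist, the RNA of the inactive X chromosome, had 6 counts in htr_V replicate 3 and 12 counts in WT_V replicate 3, against 5919 to 10767 counts in each other library, so these libraries stood apart from the rest of their groups. The fold changes of Fos with valproic acid, the numbers of members past the test and the gene lists over both genotypes are given without them as well. Group overlaps, spreads, pair correlations and the interaction and knockout fold changes of single genes are given only with them. So are the valproic acid fold changes of members other than Fos and the counts of members by unadjusted p. Both libraries lacking Xist were exposed ones, so Xist was not balanced between exposed and unexposed libraries. Counts of mitochondrial genes were 18.6% of the total in htr_V replicate 1 and 16.4% in WT_V replicate 3, against 12.2% to 15.2% in the other 10 libraries, and the TMM factors of these libraries were 0.93 and 0.968, against 0.991 to 1.02. The level of Arc was highest in htr_V replicate 1, and WT_V replicate 3 was lowest of its group for all 10 members; the part of the mitochondrial share in these levels was not tested. Over both genotypes the log2 fold change of Fos was 0.66 without htr_V replicate 1 and 0.76 without WT_V replicate 3, and that of Arc was 0.62 and 0.81. In gene-level counts no Notch receptor gene separated the genotypes: Notch1 averaged 19.1 ± 2.28 CPM in htr_V, 16.9 ± 1.58 CPM in WT_V, 17.2 ± 0.67 CPM in htr and 17.8 ± 1.87 CPM in WT (SD, n = 3 each). Htr3a, the serotonin receptor gene named in the label, averaged 10.4 ± 0.46 CPM in htr_V and 10.1 ± 0.62 CPM in htr, against 6.01 ± 0.75 CPM in WT_V and 4.28 ± 0.77 CPM in WT, and every knockout library was above every wildtype library.

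Per kilobase of exon, the 10 genes spanned a wide range over the 12 libraries. Arc was the highest at 76.5 CPM per kb, followed by Egr1 at 35.3, Junb at 19.1 and Nr4a1 at 17.5 CPM per kb. Lower levels were found for Dusp1 at 6.16, Fos at 5.58, Ier2 at 3.67, Npas4 at 2.34, Fosb at 2.01 and Egr2 at 1.6 CPM per kb. The neighbours in this order that lie closest are Junb with Nr4a1, Dusp1 with Fos and Npas4 with Fosb. Raw counts behind a single value ran from 57 for Egr2 to 7610 for Arc, so counting error weighed most on Egr2 and least on Arc. Junb overlaps Prdx2 and Dusp1 overlaps Ergic1, each on the opposite strand, and since the strand setting of the counting is not given, some of their counts could belong to those neighbours.

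The question of how prenatal valproic acid relates to these genes was asked within each genotype and over both genotypes. Fos rose with valproic acid over both genotypes, and it was the only member that passed the test. All 10 members had fold changes above 0 in the knockout, in the wildtype and over both genotypes, and the median log2 fold changes of the 10 were 0.30, 0.542 and 0.399 in these comparisons. Of all tested genes, 51.8%, 51.5% and 52.4% had fold changes above 0, and their medians were 0.00893, 0.00665 and 0.0092. In the knockout this direction rested on 1 library for 3 members: without htr_V replicate 2, the log2 fold changes of Junb, Egr1 and Egr2 were -0.02, -0.03 and 0.00, the last just below 0. The 2 within-genotype comparisons use different libraries, and the comparison over both genotypes is their mean.

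Fos (ENSMUSG00000021250, chromosome 12) encodes a leucine zipper protein that pairs with Jun proteins to form the AP-1 factor. In the knockout, Fos was at 17, 19.8 and 12.7 CPM with valproic acid, against 10.8, 11.7 and 10.5 CPM without it. In the wildtype it was at 17.2, 18.5 and 11.7 CPM with valproic acid, against 11.3, 9.21 and 7.3 CPM without it. Every exposed library was above every unexposed library of its genotype, and all 6 exposed libraries were above all 6 unexposed ones, although the lowest exposed value, 11.68 CPM in WT_V replicate 3, barely exceeded the highest unexposed one, 11.67 CPM in htr replicate 2. Such a separation of all 6 from all 6 was seen for no other member and for 193 of 17995 genes (1.07%). Averaged over genotypes, the log2 fold change of Fos was 0.68 ± 0.14 (SE; 95% interval 0.38 to 0.97), which is 1.6-fold (edgeR quasi-likelihood test, Benjamini-Hochberg adjusted p = 0.0132). Of the 10 members 1 rose and 0 fell, where 2.12% of all genes rose, 3.87% fell and 5.99% changed in either direction. Within a genotype its log2 fold change was 0.58 ± 0.19 in the knockout (adjusted p = 0.188) and 0.77 ± 0.19 in the wildtype (adjusted p = 0.0784), and neither passed the adjusted threshold of 0.05. Without both libraries lacking Xist these became 0.74 (adjusted p = 0.0473) and 0.94 (adjusted p = 0.00306), and the value over both genotypes became 0.84 (adjusted p = 0.000154).

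**Figure D1:**
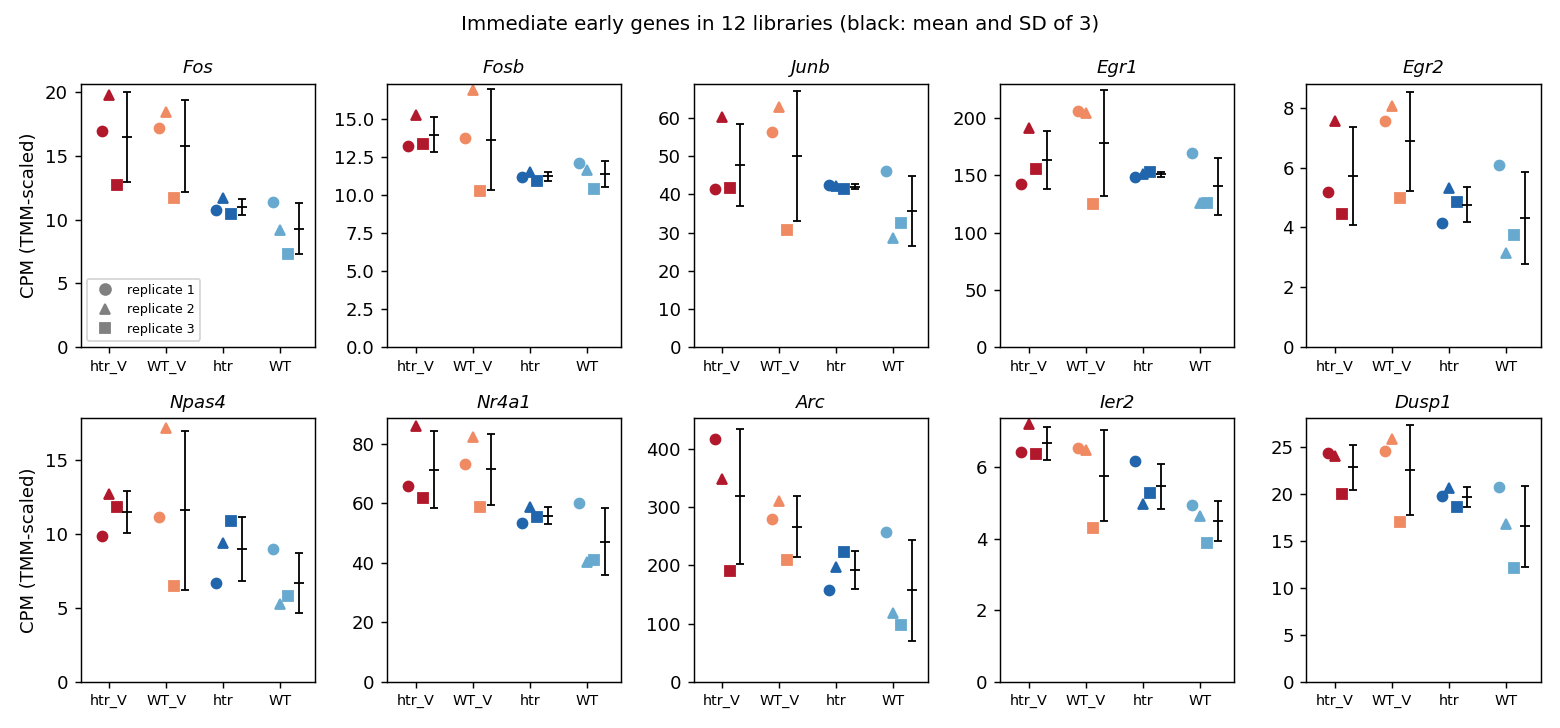
Level of each gene in CPM (vertical axes, each starting at 0) in every library, with htr_V, WT_V, htr and WT from left to right; points are libraries and the bars are group means with SD (n = 3). Fos shows all 6 exposed libraries at or above 11.68 CPM and all 6 unexposed ones at or below 11.67 CPM, while the groups of the other 9 genes overlap in at least 1 genotype.

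Fosb (ENSMUSG00000003545, chromosome 7) encodes a second partner of the Jun proteins, whose truncated splice form, not separable in gene-level counts, accumulates after repeated stimulation. It was at 13.2, 15.3 and 13.4 CPM in htr_V, against 11.2, 11.5 and 10.9 CPM in htr. Values were 13.8, 16.9 and 10.2 CPM in WT_V, against 12.1, 11.6 and 10.4 CPM in WT. The knockout groups did not overlap, whereas in the wildtype the lowest exposed library, replicate 3, was below all unexposed ones. The log2 fold change was 0.31 ± 0.14 in the knockout (adjusted p = 0.275), 0.27 ± 0.14 in the wildtype (adjusted p = 0.378) and 0.29 ± 0.10 over both genotypes (adjusted p = 0.0731). Junb (ENSMUSG00000052837, chromosome 8), a Jun family partner of Fos proteins, ran from 41.4 to 60.2 CPM in htr_V and 30.6 to 62.9 CPM in WT_V, against 41.4 to 42.5 CPM in htr and 28.5 to 46.1 CPM in WT. Its groups overlapped in both genotypes, with the exposed groups reaching higher. The log2 fold change of Junb over both genotypes was 0.33 ± 0.21 (adjusted p = 0.401).

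The zinc finger factors Egr1 and Egr2 bind GC-rich sites in the promoters of later genes, and Egr2 is also known for its part in Schwann cell myelination. Egr1 (ENSMUSG00000038418, chromosome 18) was at 142, 191 and 156 CPM in htr_V, against 149, 151 and 153 CPM in htr. It was at 206, 204 and 125 CPM in WT_V, against 169.5, 126 and 126 CPM in WT. The unexposed knockout libraries were within 5 CPM of each other, and 1 exposed knockout library was below them. WT_V replicate 3 was below every unexposed wildtype library, while the other exposed wildtype libraries were above all of them. The log2 fold change over both genotypes was 0.23 ± 0.15 (adjusted p = 0.423), the lowest of the 10. Egr2 (ENSMUSG00000037868, chromosome 10) averaged 5.73 ± 1.64 CPM in htr_V and 6.88 ± 1.65 CPM in WT_V, against 4.77 ± 0.589 CPM in htr and 4.32 ± 1.55 CPM in WT. Its groups overlapped in both genotypes, and its log2 fold change was 0.26 ± 0.25 in the knockout (adjusted p = 0.668) and 0.66 ± 0.24 in the wildtype (adjusted p = 0.209).

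Npas4 (ENSMUSG00000045903, chromosome 19), a basic helix-loop-helix PAS factor induced in neurons by calcium entry, was at 9.89, 12.7 and 11.8 CPM in htr_V, against 6.64, 9.41 and 10.9 CPM in htr. In the wildtype it was at 11.1, 17.2 and 6.48 CPM in WT_V, against 8.97, 5.24 and 5.82 CPM in WT. WT_V replicate 2 was the highest of the 12 libraries and WT_V replicate 3 was below WT replicate 1, so the groups overlapped. The log2 fold change was 0.36 ± 0.35 in the knockout (adjusted p = 0.685) and 0.79 ± 0.35 in the wildtype (adjusted p = 0.359). Nr4a1 (ENSMUSG00000023034, chromosome 15), an orphan nuclear receptor, was at 65.9, 86 and 61.7 CPM in htr_V, against 53.2, 58.8 and 55.5 CPM in htr. Its values were 73.2, 82.3 and 58.7 CPM in WT_V, against 60.0, 40.3 and 40.8 CPM in WT. The knockout groups did not overlap, and in the wildtype the lowest exposed library was below only the highest unexposed one. The log2 fold change of Nr4a1 was 0.35 ± 0.19 in the knockout (adjusted p = 0.439), 0.60 ± 0.19 in the wildtype (adjusted p = 0.196) and 0.48 ± 0.14 over both (adjusted p = 0.078).

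Arc (ENSMUSG00000022602, chromosome 15), whose protein removes AMPA receptors from synapses and whose mRNA travels into dendrites, had the largest fold change over both genotypes and the largest error. It was at 417, 349 and 191 CPM in htr_V, against 158, 197 and 223 CPM in htr. In the wildtype it was at 279.9, 311 and 209 CPM in WT_V, against 257, 118 and 97.2 CPM in WT. The highest of the 12 libraries was htr_V replicate 1 and the lowest was WT replicate 3, and in both genotypes 1 or more exposed libraries lay below an unexposed one. The log2 fold change was 0.72 ± 0.42 in the knockout (adjusted p = 0.468), 0.76 ± 0.42 in the wildtype (adjusted p = 0.471) and 0.74 ± 0.29 over both (95% interval 0.07 to 1.42, adjusted p = 0.192).

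Ier2 (ENSMUSG00000053560, chromosome 8), an immediate early gene of the growth factor response, was at 6.42, 7.19 and 6.38 CPM in htr_V, against 6.17, 4.96 and 5.26 CPM in htr. It was at 6.53, 6.47 and 4.28 CPM in WT_V, against 4.95, 4.63 and 3.87 CPM in WT. The knockout groups did not overlap, and the wildtype groups did through WT_V replicate 3. Its log2 fold change over both genotypes was 0.33 ± 0.12 (adjusted p = 0.109). Dusp1 (ENSMUSG00000024190, chromosome 17), a phosphatase that inactivates the MAP kinases upstream of several of these genes, averaged 22.8 ± 2.41 CPM in htr_V and 22.5 ± 4.79 CPM in WT_V, against 19.7 ± 1.05 CPM in htr and 16.6 ± 4.32 CPM in WT (SD, n = 3 each). Its log2 fold change over both genotypes was 0.33 ± 0.13 (adjusted p = 0.168).

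Counted within the knockout, 0 of the 10 members passed edgeR's test, where 0.0556% of all genes did, and 2 of 10, Fos and Fosb, had an unadjusted p under 0.05 with a rise, against 7.2% of all genes. DESeq2 and limma-voom each gave 0 members there. All libraries of htr_V were above all of htr for 4 members, Fos, Fosb, Nr4a1 and Ier2, against 9.88% of all genes. In the wildtype 0 members passed edgeR's test, where 0.895% of all genes did; DESeq2 gave 1 (Fos) and limma-voom 0. There 5 members, Fos, Nr4a1, Egr2, Dusp1 and Ier2, had an unadjusted p under 0.05, against 6.55% of all genes. Only Fos had all WT_V libraries above all WT libraries, against 9.84% of all genes. Over both genotypes 8 of 10 members, all but Junb and Egr1, had a rise with an unadjusted p under 0.05, against 10.5% of all genes. The members vary together between libraries, as given below, so these counts are not counts of independent genes.

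**Figure D2:**
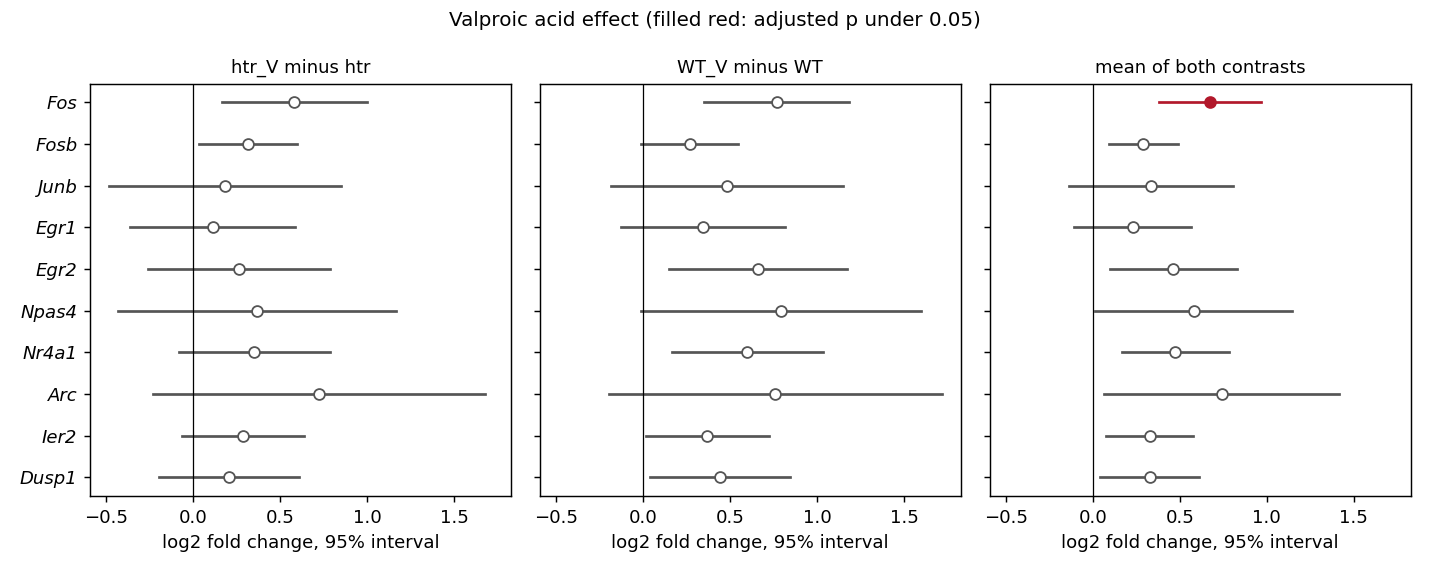
Log2 fold change with valproic acid (horizontal axis) of each gene in the knockout, the wildtype and as the mean of both, with 95% intervals from edgeR. All 30 points lie above 0, with intervals that include 0 for many, and without htr_V replicate 2 those of Junb, Egr1 and Egr2 in the knockout lie just below it; Fos over both genotypes, in red, is the only one with an adjusted p under 0.05.

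Whether the response to valproic acid differed between genotypes was asked by the interaction, the log2 fold change in the knockout minus that in the wildtype. It passed edgeR's test for 0 of 10 members and for 0% of all genes, with 0 members at an unadjusted p under 0.05 and 0 by DESeq2 or limma-voom. The interaction of Fos was -0.19 ± 0.27 (95% interval -0.78 to 0.40), that of Npas4 was -0.43 ± 0.50 (-1.56 to 0.70) and that of Arc was -0.04 ± 0.59 (-1.38 to 1.31). Egr2 had the smallest p, with an interaction of -0.40 ± 0.35 (unadjusted p = 0.269). Of the 10, 9 values were below 0, where 50.5% of all genes were above 0, and Fosb was at 0.05. Of all genes, 3.15% had an interaction above 0 and 2.83% one below 0 at an unadjusted p under 0.05. Differences between genotypes inside these intervals were not detectable with 3 libraries a group.

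Knockout against wildtype was compared with and without valproic acid. Without it, htr against WT, 9 of 10 log2 fold changes were above 0, against 49.7% of all genes, with a median of 0.24; the exception was Fosb at -0.02. The values ran up to 0.41 ± 0.36 for Npas4, and the next were 0.29 ± 0.42 for Arc and 0.29 ± 0.17 for Ier2. In edgeR 0 members passed, where 0.0389% of all genes did, 0 had an unadjusted p under 0.05, against 1.74% of all genes with a rise and 1.38% with a fall, and DESeq2 and limma-voom gave 0. Ier2 was the only member whose htr libraries were all above those of WT, against 3.58% of all genes. With valproic acid, htr_V against WT_V, 5 of 10 were above 0, against 51.2% of all genes, and the median was 0.00, with values between -0.27 ± 0.24 for Egr2 and 0.25 ± 0.41 for Arc. There too 0 members passed edgeR's test, where 0.05% of all genes did, 0 had an unadjusted p under 0.05 (4.01% of all genes with a rise, 3.42% with a fall), and DESeq2 and limma-voom gave 0. All 10 members' groups overlapped (6.96% of all genes had every htr_V library above every WT_V library).

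The exposed knockout set against the untreated wildtype combines both factors and uses the WT libraries again. All 10 log2 fold changes were above 0 (52.3% of all genes), with a median of 0.51. The largest were 1.01 ± 0.42 for Arc (adjusted p = 0.287), 0.82 ± 0.20 for Fos (adjusted p = 0.0611) and 0.77 ± 0.36 for Npas4 (adjusted p = 0.346), and Ier2 had 0.57 ± 0.17 (adjusted p = 0.0984). In edgeR 0 members passed, where 1.01% of all genes did; 6 had a rise with an unadjusted p under 0.05, against 7.45% of all genes, and DESeq2 gave 1 and limma-voom 0. For 5 members, Fos, Fosb, Npas4, Nr4a1 and Ier2, every htr_V library was above every WT library, against 10.1% of all genes.

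Pooled over the 4 groups, the 10 genes varied more between replicates than most genes did, though not in htr by the median coefficient of variation. Their SD of log2 CPM within groups was highest for Arc at 0.513, above 98.4% of the 15307 genes that averaged 1 CPM or more, and lowest for Fosb at 0.199, above 72.5% of them; the median of all these genes was 0.132. Npas4, at 0.452, and Egr2, at 0.372, followed Arc, while Fos was at 0.289. The coefficient of variation, averaged as a median over the 10 genes, was 16.9% in htr_V, 23.4% in WT_V and 24.9% in WT. The medians over all genes in these groups were 7.99%, 7.74% and 7.94%. In htr the median over the 10 genes was 5.5%, below the 8.75% of all genes. The untreated knockout libraries were the most alike for 8 of the 10 genes, all but Npas4 and Ier2. No test of these spreads was made.

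This spread was shared by the members: a library that was high for 1 gene of the group was mostly high for the others. WT replicate 1 was the highest wildtype library without valproic acid for 10 of 10 genes, and WT_V replicate 3, which lacks Xist, was the lowest of its group for 10 of 10. WT_V replicate 2 was among the 3 highest of the 12 libraries for 10 genes and htr_V replicate 2 for 9. WT replicates 2 and 3 were among the 3 lowest for 9 and 10 genes. In the median over genes, log2 CPM relative to the gene's mean was 0.484 in htr_V replicate 2 and 0.493 in WT_V replicate 2, against -0.508 in WT replicate 2 and -0.525 in WT replicate 3. htr_V replicate 3, the other library without Xist, was at 0.00744, the lowest exposed knockout library for 6 genes.

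**Figure D3:**
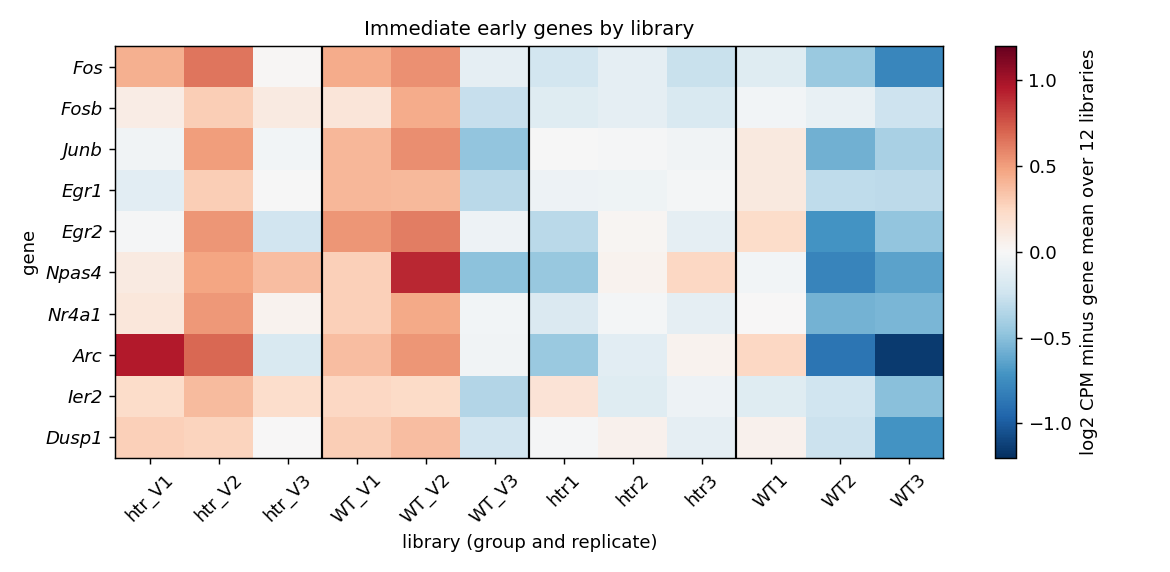
Log2 CPM of each gene (rows) in each of the 12 libraries (columns, by group and replicate) minus its mean over the libraries, on a colour scale in log2 units. Columns are mostly of 1 colour: htr_V replicate 2 and WT_V replicates 1 and 2 are above the mean for all 10 genes, and WT replicates 2 and 3 are below it for all 10.

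After the mean of each group was removed, all 45 pairs of members correlated positively over the 12 libraries, with Pearson's r between 0.443 (Arc with Ier2) and 0.976 (Egr2 with Nr4a1) and a median of 0.796. Permutation of libraries within groups, exact over 1296 arrangements and two-sided, with Benjamini-Hochberg adjustment over the 45 pairs, gave 16 pairs under 0.05 by Pearson's r and 6 by Spearman's rho, all 6 of which were among the 16. For Egr2 with Nr4a1 both p-values were 0.000772, the smallest these permutations can give (adjusted p = 0.0347), rho was 0.972 and r was 0.949 without the 2 libraries farthest from the median. Here and below, these 2 were the farthest for the gene named first, so libraries extreme for the other gene could remain. For Fos with Dusp1, r was 0.934 (permutation p = 0.00154, adjusted p = 0.0347) and rho was 0.923 (permutation p = 0.00386, adjusted p = 0.0463), with r = 0.927 without the farthest 2. Other pairs rested more on single libraries: without the farthest 2, r was between 0.0511 (Npas4 with Ier2) and 0.949 over the 45 pairs, with a median of 0.688, and all 45 were above 0. Fosb with Npas4 was at 0.407 without them, against 0.809 with them, and Npas4 with Dusp1 at 0.361, against 0.624. Among the 16 pairs under 0.05 by Pearson's r the lowest was 0.671. By median r, Arc was the least tied to the others, at 0.6, and Egr1 the most, at 0.837. Counted by those pairs under 0.05 the order differed: Fos and Nr4a1 had 5 each, Arc 2, Egr1 1 and Ier2 0. The libraries share a normalisation, and 3 in a group leave few degrees of freedom.

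Genes outside the 10 whose levels most resembled the mean standardised profile of the 10 over the 12 libraries were sought among genes averaging 1 CPM or more. They were Egr4 (Pearson's r = 0.981), Dnajb5 (0.935), Phf13 (0.924), Midn (0.912), Gpr3 (0.91) and Ephb3 (0.893). Egr4 encodes a further zinc finger factor of the Egr family, Dnajb5 a heat shock co-chaperone, Gpr3 a receptor that raises cyclic AMP and Ephb3 an ephrin receptor. Egr4 averaged 30.7 ± 2.55 CPM in htr_V and 32.1 ± 5.89 CPM in WT_V, against 25.4 ± 0.1 CPM in htr and 23 ± 3.61 CPM in WT (SD, n = 3 each). This is a description of 12 libraries and no test was made of it.

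Other genes of the response were followed in lists by role. Of 36 further immediate early genes, 35 were tested (Fosl1 was not) and 27 had fold changes above 0 with valproic acid over both genotypes, with a median log2 fold change of 0.171. Of these, 6 rose and 0 fell, where 2.12% of all genes rose. Per1, a repressor of the circadian clock that is also induced by light and by CREB, rose by a log2 fold change of 0.38 ± 0.06 (adjusted p = 0.00132), with 84.6 ± 2.1 CPM in htr_V and 87.4 ± 6.56 CPM in WT_V, against 68.5 ± 4.55 CPM in htr and 63.7 ± 8.98 CPM in WT. Sik1, a kinase that restrains CREB co-activators, rose by 0.43 ± 0.10 (adjusted p = 0.0154), and Egr4 by 0.38 ± 0.08 (adjusted p = 0.0143). Trib1, a pseudokinase, rose by 0.37 ± 0.09 (adjusted p = 0.018), the AP-1 gene Fosl2 by 0.25 ± 0.07 (adjusted p = 0.0257), and the matrix protein gene Ccn1 by 0.46 ± 0.14 (adjusted p = 0.0445). Without both libraries lacking Xist, a count added after the data were seen, 6 of the 35 rose and 0 fell, where 0.411% of all genes rose; 5 of these 6 were named above, and Dusp6, a dual-specificity phosphatase, passed in place of Ccn1. Among relatives of the 10 members, Egr4 and Fosl2 passed. Egr3 was at 0.01 ± 0.07, Nr4a2 at -0.11 ± 0.06 and Nr4a3 at 0.20 ± 0.08, none of which passed. The latter were chosen after their values were seen, and a difference between the relatives was not tested.

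Genes listed as induced later, which encode synaptic, secreted and signalling proteins among others, had a log2 fold change of -0.116 in the median of 18 genes. Of these, 6 had fold changes above 0 over both genotypes; 1 rose and 3 fell, against 2.12% and 3.87% of all genes. Nrn1, a growth factor of neurites, rose by 0.19 ± 0.05 (adjusted p = 0.0283). Inhba, the activin subunit gene, changed by -0.45 ± 0.11 (adjusted p = 0.0179) and averaged 5.93 ± 1.34 CPM in htr_V and 7.03 ± 0.348 CPM in WT_V, against 8.11 ± 1.27 CPM in htr and 9.56 ± 0.524 CPM in WT. Rgs2, a regulator of G protein signalling, changed by -0.30 ± 0.08 (adjusted p = 0.0381) and Rasgrp1, an activator of Ras, by -0.22 ± 0.06 (adjusted p = 0.0213). Without both libraries lacking Xist 0 of the 18 passed edgeR's test, where 0.411% of all genes rose and 1.24% fell, and the median was -0.0375. In that setting 9 of the 18 had an unadjusted p under 0.05 in either direction, as had 2889 of 17995 genes. Bdnf, the neurotrophin gene, was at 0.04 ± 0.09 and Homer1, a synaptic scaffold gene, at -0.25 ± 0.08 (adjusted p = 0.868 and 0.0588). Of 33 genes acting upstream of the immediate early genes, 19 were above 0 with a median of 0.03. There the CREB co-activator gene Crtc3 rose by 0.30 ± 0.08 (adjusted p = 0.0272), while the calcineurin subunit gene Ppp3ca, at -0.18 ± 0.05 (adjusted p = 0.0469), fell. Without both libraries lacking Xist 0 of the 33 passed edgeR's test. There 10 of the 33 had an unadjusted p under 0.05 in either direction, beside the same 2889 of 17995 genes.

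**Figure D4:**
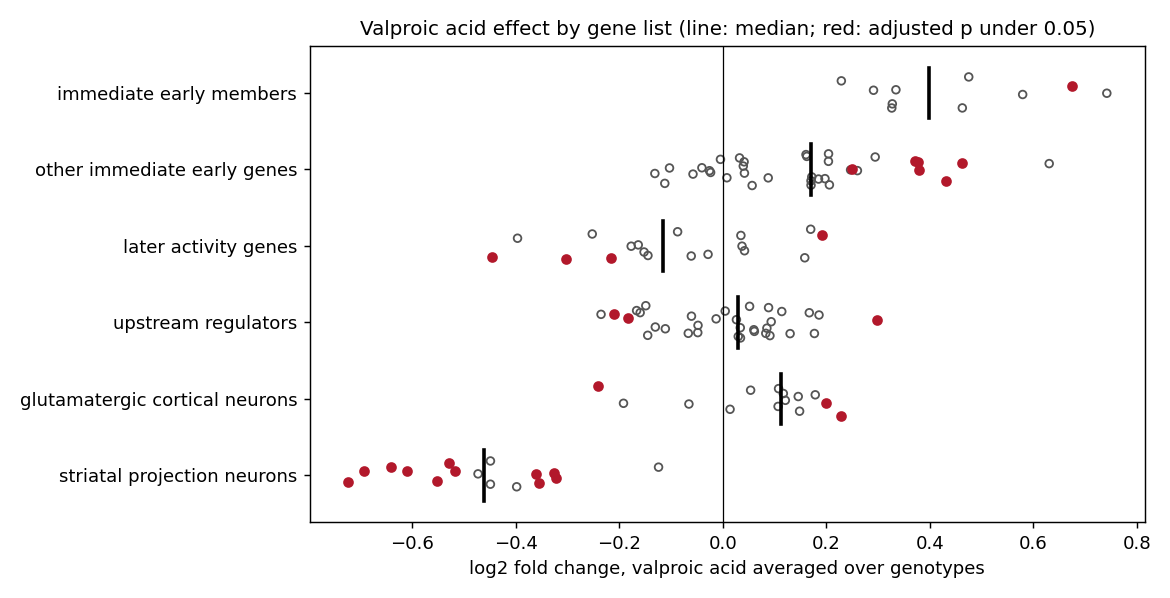
Log2 fold change with valproic acid, averaged over genotypes, of every tested gene (points) in the 10 genes, 3 lists by role and 2 lists of neuron markers, with the list's median as a bar and red points where the adjusted p was under 0.05. The 10 members lie above 0 with a median of 0.399, the further immediate early genes have a median of 0.171 and the later genes one of -0.116.

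Markers of cell types moved with valproic acid in the same libraries, and in bulk tissue fewer cells of a type and less RNA per cell cannot be told apart. Over both genotypes 2.12% of all genes rose and 3.87% fell, the shares beside which the counts of each list stand. Of 16 markers of striatal projection neurons, in which Fos and its relatives are also induced, 0 rose and 11 fell over both genotypes, with a median of -0.461. In the wildtype 9 of the 16 fell (0.689% of all genes), with a median of -0.669. In the knockout 0 fell (0.0389% of all genes), with a median of -0.256. The interaction of these markers was above 0 for 16 of 16 (50.5% of all genes). It had an unadjusted p under 0.05 for 6 (3.15% of all genes) and passed edgeR's test for 0. Their summed level was 1766 to 2139 CPM in htr_V and 1639 to 1829 CPM in WT_V, against 1929.7 to 2887 CPM in htr and 2522 to 2649 CPM in WT. Of 14 markers of cortical glutamatergic neurons, 2 rose (Slc17a7 and Cux2) and 1 fell (Bcl11b, which striatal neurons express as well), with a median of 0.112 and a summed level of 2346 to 2552 CPM in htr_V and 2566 to 2718 CPM in WT_V, against 2244 to 2532 CPM in htr and 2139 to 2497 CPM in WT. For olfactory bulb markers 2 of 11 tested fell and the median was -0.955, with sums of 312 to 343 CPM in htr_V and 288 to 315 CPM in WT_V, against 367 to 486 CPM in htr and 376 to 619.6 CPM in WT. Meningeal fibroblast markers, of which 4 of 10 rose, summed to 1365 to 1779 CPM in htr_V and 1133 to 1729 CPM in WT_V, against 1036 to 1222 CPM in htr and 1149 to 1314 CPM in WT. All 12 choroid plexus markers were above 0 over both genotypes (52.4% of all genes), with a median of 0.375, and 1 (Steap1) rose. In the knockout alone 11 of 12 had a rise with an unadjusted p under 0.05, against 7.2% of all genes, with a median of 0.651. In the wildtype 0 of 12 markers did, against 6.55% of all genes, and the median of these markers was 0.0248. They summed to 2654 to 3194 CPM in htr_V and 1367 to 2691 CPM in WT_V, against 1855 to 2003 CPM in htr and 1344 to 2087 CPM in WT. Among microglia markers 2 of 10 rose (Siglech and Csf1r; median 0.147, sums of 390.3 to 417 CPM in htr_V and 400.3 to 411 CPM in WT_V, against 359.7 to 409 CPM in htr and 367 to 373 CPM in WT). Among interneuron markers 2 of 11 fell (Gad1 and Gad2; median -0.0869, sums of 855 to 999 CPM in htr_V and 854 to 1043 CPM in WT_V, against 1022 to 1147 CPM in htr and 1025 to 1201 CPM in WT). Among oligodendrocyte markers 2 of 10 fell (Mal and Ermn; median -0.0725, sums of 10342 to 11518 CPM in htr_V and 8986 to 11291 CPM in WT_V, against 10327 to 11204 CPM in htr and 10479 to 11123 CPM in WT). Of 12 endothelial and pericyte markers 1 fell and 0 rose (median 0.0577). By edgeR's test 0 of 10 astrocyte, 0 of 7 ependymal and 0 of 8 blood cell markers passed, with medians of 0.117, 0.14 and -0.483. Above 0 with an unadjusted p under 0.05 were 5, 1 and 0 of them, against 10.5% of all genes. Without both libraries lacking Xist, 0.411% of all genes rose and 1.24% fell. There 7 of the 16 striatal markers fell (median -0.523), 0 cortical markers rose and 1 fell, and 2 olfactory bulb markers fell. In the same setting 1 meningeal marker rose, 1 oligodendrocyte marker fell and 0 markers of the choroid plexus, microglia or interneurons passed. None of the markers in these lists was at 0 in a group, except 1 ependymal marker in WT. The part of these shifts in the level of Fos and the other members was not tested.

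The value of Fos over both genotypes held under other ways of handling the same counts. Over 21 other settings its log2 fold change was between 0.59 (without htr_V replicate 2) and 0.84 (with a term marking the libraries that lack Xist). Omission of those libraries also gave 0.84, and these settings are not separate checks. The adjusted p of Fos was under 0.05 in all 21, the highest being 0.0478 without htr replicate 3. Other members passed in some of these settings and not in others: Dusp1 and Nr4a1 in 5 of the 21 each, Fosb in 3, Egr2 in 2, Arc and Ier2 in 1 each, and Junb, Egr1 and Npas4 in 0. Without WT_V replicate 3 there were 4 members past the test, Fos, Fosb, Ier2 and Dusp1, where 603 of all genes passed. Omission of WT replicate 1 also gave 4, Fos, Egr2, Nr4a1 and Dusp1, where 1024 of all genes passed. Without both libraries lacking Xist there were 3, Fos, Fosb and Dusp1, and the median log2 fold change of the 10 members was 0.542, where 0.411% of all genes rose.

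**Figure D5:**
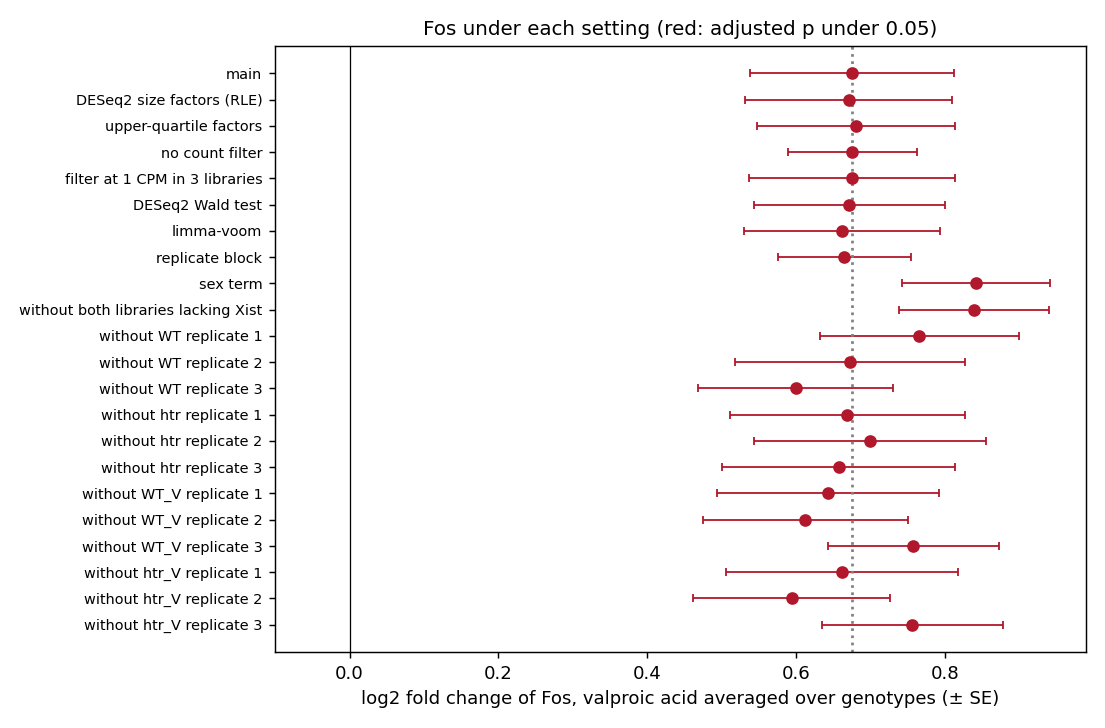
Log2 fold change of Fos with valproic acid over both genotypes (horizontal axis, ± SE) under the reported fit and each other setting (rows), with the reported value as a dotted line. All settings lie between 0.59 and 0.84, and all are red, for an adjusted p under 0.05.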

How the data were processed

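The authors deposited 1 table of raw counts per Ensembl gene for the 12 libraries, with no normalisation; HISAT2 and GRCm39 are named without versions per the submitters' processing notes. For the counting program, its annotation and its strand setting, nothing is stated in the sources used here. Of 56748 genes, 22955 had no count, and 52073 were matched to symbols from a RefSeq table. Counts were analysed with R 4.3.3, edgeR 4.0.16, limma 3.58.1 and DESeq2 1.42.0, and with Python 3.11.15, pandas 2.3.3, scipy 1.17.1 and matplotlib 3.10.9. Genes were kept by filterByExpr (17995) and scaled by TMM factors. Group means were estimated from all 12 libraries at once by edgeR's quasi-likelihood fit with robust dispersions (biological coefficient of variation 0.0898), and each two-sided contrast was adjusted by Benjamini-Hochberg across the tested genes, with a threshold of 0.05. Log2 CPM used a prior count of 2. Totals of 16887885 to 24944681 counts set the precision, and no 2 replicates of a group differed by less than counting noise.

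The 10 members and all lists were chosen with earlier results of these data known. All 10 members are named. From each list by role, up to 6 genes past the test with the smallest p are named, and those outside that rule (Egr3, Nr4a2, Nr4a3, Bdnf, Homer1) were chosen after their values were seen; 1 gene that the rule takes is not reported here, and the 6 genes most like the members were taken by Pearson's r. Alternatives were other scaling factors, omission of the filter on low counts, a stricter one (1 CPM in 3 libraries), DESeq2, limma-voom, only the libraries compared, a replicate block, a sex term from Xist, omission of both libraries lacking Xist and omission of each library in turn.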

Additional observations from a re-analysis of the deposited data

How the results depend on the processing

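The number of members past the test depended on the setting in the valproic acid comparisons and in htr_V against WT, and was 0 under all settings run for htr against WT, htr_V against WT_V and the interaction. Brackets below hold the number of all genes past the same test. Over both genotypes the number of members was 1 as reported (1078), 4 with no count filter (1453), 2 with DESeq2 (1258) and 3 with limma-voom (967). It was 3 with a replicate block (876), 2 with a sex term (172) and 3 without both libraries lacking Xist (298). When single libraries were left out it was 1 to 4 (426 to 1193). In WT_V against WT it was 0 as reported (161), 3 with no count filter (512) and 1 with DESeq2 (333). It was 1 each with the replicate block (115), the sex term (69) and without both libraries lacking Xist (40). With single libraries left out it was 0 to 3 (14 to 225), the 3 being without WT replicate 1 (155). In htr_V against htr it was 0 as reported (10), 1 with no count filter (391) and 1 without both libraries lacking Xist (14). It was 0 for every single library left out (2 to 162). In htr_V against WT it was 0 as reported (182), 2 with no count filter (649), 1 with DESeq2 (414) and 2 with only the libraries compared (361). It was 2 with the replicate block (132), 1 with the sex term (45) and 1 without both libraries lacking Xist (151). With single libraries left out it was 0 to 2 (32 to 370). The cause of these changes was not tested.

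Of the single fold changes, 1472 values kept their side of the threshold and moved by less than their spread, 44 came to pass the test, 4 moved, and 0 of them lost a call or reversed one. In the 3 valproic acid comparisons 650 values were recomputed and 3 were below 0, those of Egr1, Egr2 and Junb in the knockout without htr_V replicate 2. A fit of only the libraries compared gives no separate value for the mean over genotypes or the interaction, which use all 12. The replicate numbers were not taken as pairs: 2 of 18 same-number pairs of libraries had deviations correlated above 0.1 (range -0.14 to 0.148), and 4 of the 12 libraries correlated best with their own number. Depth limits Egr2 most, with a lowest count of 57 in a library, and the 3 libraries a group limit every comparison.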

Other observations

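The libraries' own values are given here for Egr4, which was chosen because it followed the members most closely, so this likeness is no separate result. Egr4 ran from 28.6 to 33.5 CPM in htr_V and 25.5 to 36.7 CPM in WT_V, against 25.3 to 25.5 CPM in htr and 20.5 to 27.2 CPM in WT, and WT_V replicate 2 was again the highest and WT replicate 3 the lowest of the 12. The summed level of the 10 members was 518 to 773 CPM in htr_V, 478 to 754 CPM in WT_V, 462 to 534 CPM in htr and 339 to 597 CPM in WT, a sum in which Arc and Egr1 have the largest shares. Among the genes most like the members, Midn, Gpr3 and Ephb3 also rose with valproic acid over both genotypes. Their log2 fold changes were 0.33 (adjusted p = 0.018), 0.47 (adjusted p = 0.0371) and 0.35 (adjusted p = 0.0071) in edgeR's test. Dnajb5 and Phf13 did not pass that test (adjusted p = 0.113 and 0.0711). Since all of these genes were chosen by a profile that includes the treatment, this is a description.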
